A study of Mus musculus with 6 samples.

Results

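The citric acid cycle enzymes described here are 9 genes of the 28601 in the deposited expression table, chosen by name: Cs, Idh3a, Idh3b, Idh3g, Ogdh, Suclg1, Fh1 and Mdh2, which encode enzymes of the cycle other than succinate dehydrogenase, and Dhtkd1, which encodes a relative of the Ogdh product. All 9 were found once each in the table, and all 9 passed the filter on low counts that left 18648 tested genes. RNA was sequenced from the livers of 6 male mice, 3 wild type (WT) and 3 labelled PRDX1 Cys52Ser, a serine in place of the cysteine with which peroxiredoxin 1 reduces hydrogen peroxide. All 6 mice received CDAHFD, a high-fat diet of defined amino acids without choline that is used to produce fatty, inflamed and fibrotic liver, from 8 weeks of age for 8 weeks per the series design and the titles. The treatment field differs, giving 8, 9 and 10 weeks of diet for WT replicates 1, 2 and 3 and 11, 12 and 13 weeks for Cys52Ser replicates 1, 2 and 3, and if that were the true duration, genotype and duration could not be told apart. There was no group on a control diet, and the strain, the zygosity and how the allele was made are not given in the sources used here.

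The cycle runs in the mitochondrial matrix and oxidizes the acetyl group of acetyl-CoA to carbon dioxide, passing electrons to the respiratory chain. Citrate synthase (Cs) joins acetyl-CoA to oxaloacetate, and the NAD-dependent isocitrate dehydrogenase, built from the catalytic subunit Idh3a and the regulatory subunits Idh3b and Idh3g, makes 2-oxoglutarate. Ogdh is the decarboxylating component of the 2-oxoglutarate dehydrogenase complex, Suclg1 is the alpha subunit of succinyl-CoA ligase, Fh1 is fumarase, and Mdh2 is the malate dehydrogenase that closes the cycle. Dhtkd1 decarboxylates 2-oxoadipate, an intermediate of lysine and tryptophan breakdown, and works with the same Dlst and Dld components as Ogdh. In hepatocytes the cycle also supplies carbon for glucose and lipid synthesis and takes up carbon from amino acids.

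In Cys52Ser liver, RNA of Idh3a and Dhtkd1 was higher than in WT, and none of the 9 genes was called lower. Idh3a rose 1.77-fold and Dhtkd1 2.03-fold after TMM scaling, a scaling of each library that assumes most genes do not change. Thus 2 of 9 were called higher at an edgeR adjusted p below 0.05, where 2.52% of all tested genes were called higher and 2.46% lower (4.98% in either direction). The other 7 did not pass. The median log2 fold change of the 9 genes was 0.47, and that of all tested genes was 0.00. With libraries scaled by their totals alone the medians were 0.11 and -0.35. Then 1 of the 9, Idh3a, was called higher (1.57% of tested genes were, and 14.6% were called lower). A change of scaling moves the log2 fold changes of all genes by nearly the same amount. The distance of the 9 genes from the median of all genes is thus alike under both scalings by construction, and does not check the rise. The direction of Cs, Idh3g and Mdh2 differed between the scalings.

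**Figure D1:**
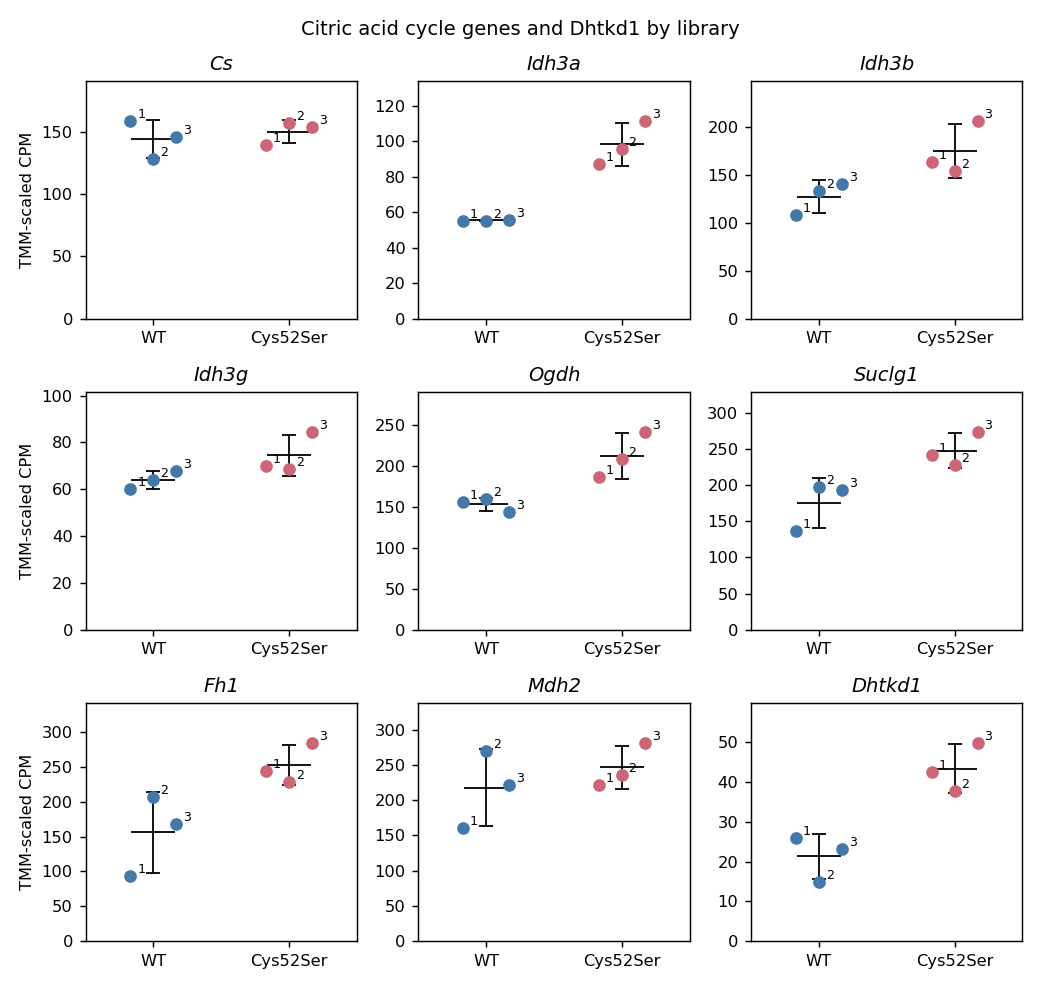
Counts of each gene scaled to a common library size with TMM factors (CPM) in the 3 WT and 3 Cys52Ser libraries; digits are replicate numbers, wide bars the mean and error bars the SD. The groups are separate and higher in Cys52Ser for 7 of the 9 genes, against 14.4% of all tested genes. Among the 7 are Idh3a (55.3 to 55.6 against 87.5 to 112 CPM) and Dhtkd1 (14.9 to 25.98 against 37.8 to 49.9 CPM). The groups of Cs and Mdh2 overlap.

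Libraries held 53318196 to 73900923 counts, and the 9 genes 909 to 16432 counts each per library. Composition differed between the groups. Albumin RNA took 3.60% to 5.55% of counts in WT and 8.08% to 8.49% in Cys52Ser, and TMM factors were 1.05 to 1.21 in WT and 0.814 to 0.963 in Cys52Ser. Hepatocyte markers were abundant in every library, as the label liver implies, and their summed level was 70231 to 111730 CPM in WT and 152000 to 189290 CPM in Cys52Ser. Albumin is among these markers and makes up much of the sum. It had a mean of 43147 CPM in WT and 93821 CPM in Cys52Ser and did not pass (adjusted p = 0.0573, edgeR). Prdx1 RNA itself was 920 ± 57.2 CPM (SD, n = 3) in the WT mice and lower in each Cys52Ser mouse, at 780 ± 105 CPM (SD, n = 3; adjusted p = 0.421, edgeR). A gene-level count does not check the substitution of a residue, so the genotype labels could not be checked.

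The start-site regions of Dhtkd1, its relative Ogdh and Cs are shown because they set a gene that rose beside one that did not pass and one whose groups overlapped. The sequences are RefSeq windows on build GRCm38.p6, 5′ to 3′ on the gene's strand, and hold the 250 bases before the annotated start. They lie at chr2:5942793-5943042 (minus strand) for Dhtkd1, chr11:6291347-6291596 (plus strand) for Ogdh and chr10:128337477-128337726 (plus strand) for Cs. Bases just after each start were looked for in the gene's GENCODE transcripts. They were found for Dhtkd1 and Cs, but not for this Ogdh window, which ends before the deposited Ogdh start at 6291633. Distances for Ogdh therefore rest on the RefSeq start. Capitals mark CCAAT on either strand, the letters that the factor NF-Y recognizes.
Dhtkd1: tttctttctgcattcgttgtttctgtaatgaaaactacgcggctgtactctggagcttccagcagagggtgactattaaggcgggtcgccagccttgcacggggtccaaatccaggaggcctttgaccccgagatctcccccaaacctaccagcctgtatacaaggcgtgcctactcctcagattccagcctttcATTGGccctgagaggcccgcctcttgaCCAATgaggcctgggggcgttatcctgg
Ogdh: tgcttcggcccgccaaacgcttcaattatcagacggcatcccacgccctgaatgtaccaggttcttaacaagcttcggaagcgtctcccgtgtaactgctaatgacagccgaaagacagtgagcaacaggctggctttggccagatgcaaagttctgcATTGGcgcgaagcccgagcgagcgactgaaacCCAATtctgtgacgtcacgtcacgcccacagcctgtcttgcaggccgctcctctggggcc
Cs: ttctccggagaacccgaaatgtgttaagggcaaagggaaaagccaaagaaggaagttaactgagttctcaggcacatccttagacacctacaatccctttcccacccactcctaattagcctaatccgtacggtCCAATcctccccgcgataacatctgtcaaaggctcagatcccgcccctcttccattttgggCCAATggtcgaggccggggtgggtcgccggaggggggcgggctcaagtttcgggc
The Dhtkd1 window held CCAAT at 55 and 28 bases before the start, that of Ogdh at 92 and 60 bases (the first of 6 listed Ogdh windows, of which 4 held CCAAT) and that of Cs at 116 and 55 bases. Of the 8 genes with a window, 5 held CCAAT (Cs, Idh3b, Ogdh, Fh1 and Dhtkd1), against 34.5% of 27025 genes, each counted by its first listed window. Of these 5, edgeR called Dhtkd1 higher, while Cs, Idh3b, Ogdh and Fh1 did not pass. Whether the letters bear on the RNA levels was not tested. Idh3g alone held CCGGAAG, which GABP recognizes and which 7.05% of genes held. None of the windows listed for the 8 genes held TCAAGGTCA (0.366% of genes) or CAAAGTCCA (0.381%), elements of ERR and HNF4. Both strands were searched, and no match overlapped another. No window was listed for Idh3a.

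At the entry of the cycle, Cs RNA (ENSMUSG00000005683, GRCm38 chromosome 10, 128337734 to 128362479) was 159, 128 and 146 CPM in WT replicates 1, 2 and 3 and 140, 157 and 154 CPM in Cys52Ser replicates 1, 2 and 3. The 2 groups overlapped, and the WT library of replicate 1 was the highest of all 6. The difference was 0.059 on the log2 scale (95% confidence interval -0.23 to 0.35; adjusted p = 0.832, edgeR), and with library totals alone it was -0.29 (adjusted p = 0.181, edgeR). Cs therefore had no resolved direction in these data.

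The 3 subunit genes of isocitrate dehydrogenase did not move by the same amount. Idh3a (ENSMUSG00000032279, chromosome 9, 54586334 to 54604661) was 55.4, 55.3 and 55.6 CPM in WT and 87.5, 95.7 and 112 CPM in Cys52Ser. On this scale the WT mice had a coefficient of variation of 0.284%, and each Cys52Ser mouse lay above them. On deposited FPKM the same WT mice were farther apart, at 11.7, 10.96 and 10.04, against 13.3, 16.0 and 16.1 FPKM in Cys52Ser. The log2 fold change was 0.83 ± 0.11 (SE; 95% confidence interval 0.56 to 1.10; edgeR adjusted p = 0.0198). The direction held in every alternative tried, and the call held with library totals alone, at 0.47 on the log2 scale (adjusted p = 0.0323, edgeR). Leaving out replicate 2 of WT, or replicate 1 or 3 of Cys52Ser, ended the call, at edgeR adjusted p of 0.0624, 0.0607 and 0.0696, with 2 mice left in that group.

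Idh3b (ENSMUSG00000027406, chromosome 2, 130279309 to 130284547) was 109, 134 and 140 CPM in WT and 164, 154 and 207 CPM in Cys52Ser. Its groups did not overlap, but the log2 fold change of 0.46 (95% confidence interval 0.08 to 0.83) did not pass (edgeR adjusted p = 0.146), and it was 0.30 without WT replicate 1. Its exons share 5 of 3422 bases with those of its neighbour Nop56. Idh3g, on chromosome X (ENSMUSG00000002010, 73778963 to 73786897), was 59.9, 63.8 and 67.9 CPM in WT and 70.0, 68.8 and 84.5 CPM in Cys52Ser. Its log2 fold change was 0.22 (95% confidence interval -0.05 to 0.49; edgeR adjusted p = 0.319), and it was 0.12 without WT replicate 1 and also 0.12 without Cys52Ser replicate 3. Idh3g shows how far the scaling reaches. Its Cys52Ser libraries lay above all WT libraries on TMM-scaled CPM, and below them on deposited FPKM, where it was 23.5 ± 0.443 (SD, n = 3) in the WT mice and 21.5 ± 1.41 (SD, n = 3) in the Cys52Ser mice.

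Ratios within a library do not depend on the scaling between libraries. Measured per transcript length (FPKM, which scales fragments by transcript length and library size), the Idh3a to Idh3g ratio was 0.492, 0.462 and 0.436 in WT and 0.666, 0.742 and 0.704 in Cys52Ser. All 3 Cys52Ser mice thus had more Idh3a RNA per Idh3g RNA, a log2 difference of 0.60. The Idh3a to Idh3b ratio was 0.344, 0.279 and 0.267 in WT and 0.360, 0.419 and 0.364 in Cys52Ser, a log2 difference of 0.37. The Idh3b to Idh3g ratio differed by 0.24 on the log2 scale, from 1.43, 1.65 and 1.63 to 1.85, 1.77 and 1.93. Of the RNA of the 3 subunit genes together, Idh3a made up 15.3% ± 1.36 in WT and 19.8% ± 1.15 in Cys52Ser, Idh3g 33.0% ± 1.10 and 28.2% ± 0.577, and Idh3b 51.7% ± 2.45 and 52.03% ± 1.44 (each SD, n = 3). On FPKM the catalytic subunit gene was the least abundant of the 3 in both genotypes. On TMM-scaled CPM, without scaling by length, Idh3a lay above Idh3g in each Cys52Ser mouse (87.5, 95.7 and 112 against 70.0, 68.8 and 84.5 CPM).

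Of the 5 ratios compared, none overlapped between the groups, and each gave p = 0.1 in an exact permutation test (two-sided), the least possible with 3 mice against 3 (0.1 after Benjamini-Hochberg adjustment over the 5). The test cannot pass 0.05 in this design. How often the ratios of other gene pairs separate was not computed. Single genes often separated, 14.4% of tested genes higher and 15.2% lower on TMM-scaled CPM, and 4.71% and 37.7% on FPKM. The 5 pairs were chosen for shared complexes, homology or successive steps, and they share genes, so they are not independent of each other.

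**Figure D2:**
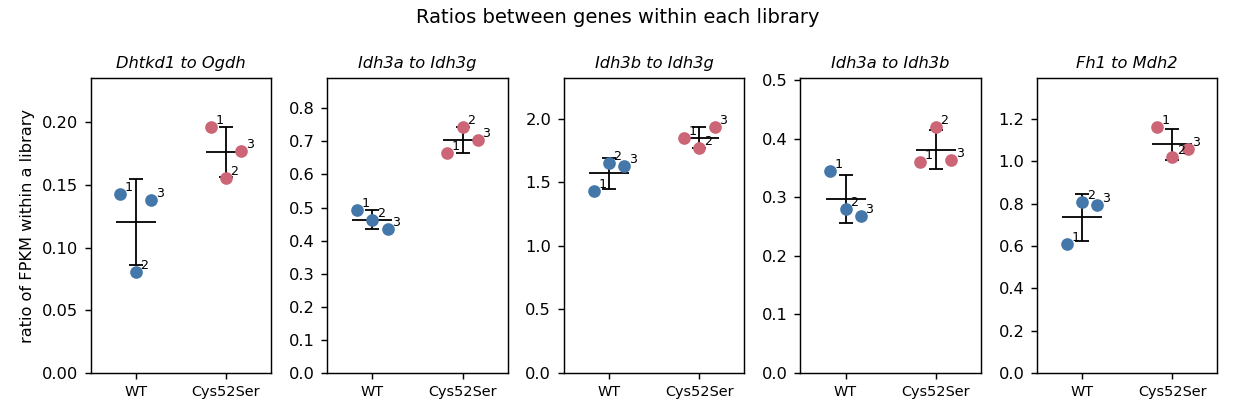
Ratio of FPKM between pairs of genes within each library (vertical axis, starting at 0) in WT and Cys52Ser; digits are replicate numbers, wide bars the mean and error bars the SD. In all 5 panels every Cys52Ser library lies above every WT library, for example for Idh3a to Idh3g (0.436 to 0.492 against 0.666 to 0.742).

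The 2 decarboxylating dehydrogenases differed in level and in size of change. Ogdh (ENSMUSG00000020456, chromosome 11, 6291633 to 6356642) was 156, 159 and 144 CPM in WT and 187, 209 and 242 CPM in Cys52Ser, without overlap. The log2 fold change of 0.47 ± 0.13 (SE; 95% confidence interval 0.16 to 0.78) did not pass (edgeR adjusted p = 0.0872), though DESeq2 called it (adjusted p = 0.00391). Dhtkd1 (ENSMUSG00000025815, chromosome 2, 5896115 to 5942792) was 25.98, 14.9 and 23.1 CPM in WT and 42.5, 37.8 and 49.9 CPM in Cys52Ser. Its lowest Cys52Ser mouse lay above its highest WT mouse, and its log2 fold change was 1.02 ± 0.21 (SE; 95% confidence interval 0.52 to 1.53; edgeR adjusted p = 0.0451).

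The Dhtkd1 call lay close to the threshold. It was lost with library totals alone, where the difference was 0.66 (adjusted p = 0.0746, edgeR), and in each of the 6 fits that left out a mouse, with edgeR adjusted p from 0.0587 to 0.141 and log2 fold changes from 0.77 (without WT replicate 2, the lowest library) to 1.14. The direction was the same in all of these fits. The gene lies across from the antisense gene Gm13267, whose exons overlap 120 of its 6333 exon bases and which was listed at 0 FPKM in all libraries but Cys52Ser replicate 1 (0.085 FPKM). Per length, Dhtkd1 was the lowest of the 9 genes, at 3.37 ± 1.02 FPKM in WT and 5.34 ± 0.366 FPKM in Cys52Ser, against 28.1 ± 3.45 and 30.5 ± 3.43 FPKM for Ogdh (each SD, n = 3). The Dhtkd1 to Ogdh ratio was 0.143, 0.0806 and 0.138 in WT and 0.196, 0.156 and 0.177 in Cys52Ser, a log2 difference of 0.59, which was 0.32 without WT replicate 2. The partners that both enzymes use did not pass: Dlst, the succinyl-transferring component, had a log2 fold change of 0.52 (edgeR adjusted p = 0.0607). Dld, the dihydrolipoyl dehydrogenase, had one of 0.24 (edgeR adjusted p = 0.324).

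Suclg1 (ENSMUSG00000052738, chromosome 6, 73248382 to 73276911) was 136, 197 and 194 CPM in WT and 242, 227 and 274 CPM in Cys52Ser. WT replicate 1 was the low library, and the groups did not overlap. The log2 fold change was 0.50 (95% confidence interval 0.09 to 0.90; edgeR adjusted p = 0.144), and 0.29 without WT replicate 1. The beta subunits with which it pairs had similar values, 0.47 for Sucla2 of the ATP-linked enzyme and 0.38 for Suclg2 of the GTP-linked enzyme (edgeR adjusted p = 0.131 and 0.173).

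Fh1 and Mdh2, which act in succession on fumarate and malate, varied widely among WT mice. Fh1 (ENSMUSG00000026526, chromosome 1, 175600374 to 175625635) was 93.1, 207 and 168 CPM in WT and 245, 229 and 285 CPM in Cys52Ser. Its coefficient of variation was 37.2% in WT and 11.5% in Cys52Ser, and WT replicate 1 held the low end. The log2 fold change of 0.70 (95% confidence interval 0.04 to 1.35) did not pass (edgeR adjusted p = 0.197), and it was 0.38 without WT replicate 1. Fh1 lies across from part of Kmo on the opposite strand, but their annotated exons share 0 bases.

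Mdh2 (ENSMUSG00000019179, chromosome 5, 135778480 to 135790391) was 161, 270 and 222 CPM in WT and 222, 236 and 281 CPM in Cys52Ser. The groups overlapped, with WT replicate 2 above 2 of the 3 Cys52Ser mice. The log2 fold change was 0.18 (95% confidence interval -0.30 to 0.66; edgeR adjusted p = 0.666), -0.049 without WT replicate 1 and -0.17 with library totals alone. The Fh1 to Mdh2 ratio was 0.608, 0.806 and 0.795 in WT and 1.16, 1.02 and 1.06 in Cys52Ser, a log2 difference of 0.56. Thus on FPKM Mdh2 was the more abundant of the pair in every WT mouse and Fh1 in every Cys52Ser mouse. On TMM-scaled CPM, which are not scaled by length, Mdh2 lay above Fh1 in Cys52Ser replicate 2 (236 against 229 CPM).

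**Figure D3:**
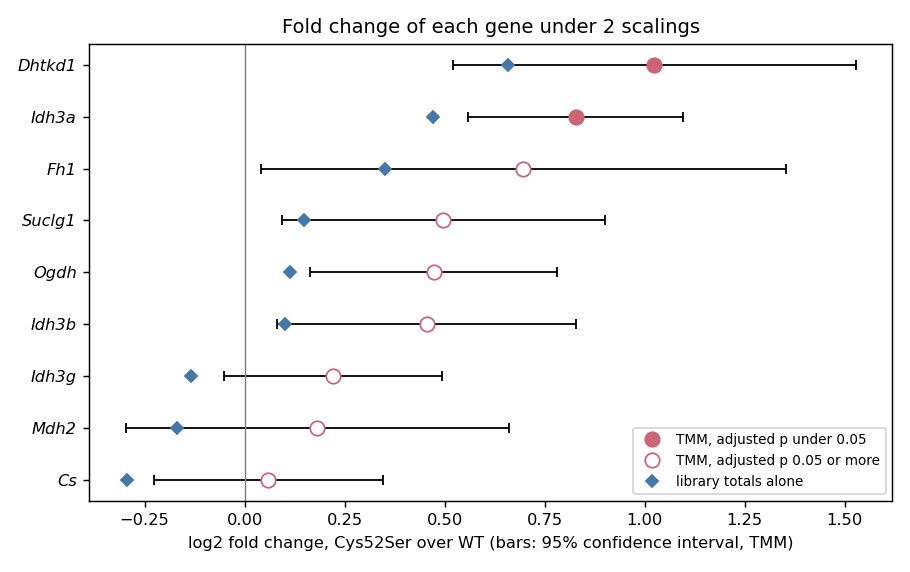
Log2 fold change of each gene, Cys52Ser over WT, with TMM scaling (circles, filled where the edgeR adjusted p is under 0.05, with 95% confidence intervals) and with library totals alone (diamonds). Idh3a (0.83 and 0.47) and Dhtkd1 (1.02 and 0.66) are positive under both, while Cs, Mdh2 and Idh3g are positive with TMM and negative with totals.

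Counting over the 9 genes, 7 had Cys52Ser libraries all above the WT libraries on TMM-scaled CPM, against 14.4% of all tested genes (15.2% were separate in the lower direction). On deposited FPKM only Idh3a and Dhtkd1 were separate and higher, where 4.71% of genes were, and Idh3g was separate and lower, where 37.7% of genes were. Before adjustment, 6 of the 9 had an edgeR p below 0.05 with a higher level, against 11.3% of tested genes. DESeq2 called 5 of the 9 higher (Idh3a, Idh3b, Ogdh, Suclg1 and Dhtkd1), against 8.03% of tested genes (6.8% were called lower). The 9 genes were chosen with earlier results of these data known, and they are not replicates of the genotype.

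As a share of all RNA, the 9 genes together did not separate the groups. Their summed FPKM was 0.0668%, 0.0822% and 0.0686% of the library total in WT and 0.0676%, 0.0756% and 0.0771% in Cys52Ser, ranges that overlap. In WT, Mdh2 (60.6 ± 14.2 FPKM), Fh1 (45.5 ± 16.0), Suclg1 (37.7 ± 5.68) and Idh3b (37.0 ± 2.64) were highest, and each overlapped the next over the 3 mice. Ogdh, Cs and Idh3g followed at 28.1 to 23.5 FPKM with overlapping ranges, and Idh3a (10.9 ± 0.848) and Dhtkd1 stood apart below. In Cys52Ser, Fh1 (58.2 ± 2.85) overlapped Mdh2 (54.1 ± 5.10), Suclg1 overlapped Idh3b, and Idh3g overlapped Cs, while Idh3a (15.2 ± 1.56) again lay between these and Dhtkd1 (each SD, n = 3).

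The patterns of the 9 genes over the 6 libraries were compared by the root mean square difference between log2(CPM + 1) profiles, each centred on its mean. The closest pair among the 9 was Idh3b and Suclg1, at 0.0913, and the farthest was Mdh2 and Dhtkd1, at 0.601. The comparison covered 9054 expressed genes, the 9 among them. With the 9 left out, their mean profile was most like Ecsit (0.0305), Samm50 (0.0426), Man1a (0.0433), Aifm1 (0.0445) and Dlst (0.0456). Of these, Ecsit, Samm50, Aifm1 and Dlst encode mitochondrial proteins. The nearest to Dhtkd1 were Dhcr7 (0.0836), Pigr (0.0859) and Pdk1 (0.0912), of which Dhcr7 shares 8 of 6326 stretches of 100 bases with Dhtkd1 transcripts. The nearest to Suclg1 was its partner Sucla2 (0.0320), and the nearest to Mdh2 was Hspa9 (0.0593). For Cs it was Lrig1 (0.0331), for Idh3a Fn1 (0.0469) and for Idh3b Dennd5b (0.0312). For Idh3g it was Sntb1 (0.0181), for Ogdh Tmem63b (0.0375) and for Fh1 Vsig4 (0.083). The share of genes for mitochondrial proteins among those compared was not counted. These values rest on 6 libraries that share the genotype contrast and describe likeness only.

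Of 11 other genes of the cycle and its complexes, edgeR called 0 at an adjusted p below 0.05 (4.98% of all tested genes were called). Of the 11, 8 had an unadjusted edgeR p below 0.05 with a higher level (11.3% of tested genes), and DESeq2 called 6 higher (8.03%). Their median log2 fold change was 0.41, or 0.045 with library totals alone. The 4 succinate dehydrogenase genes Sdha, Sdhb, Sdhc and Sdhd had log2 fold changes of 0.45, 0.54, 0.35 and 0.56 and did not pass (edgeR adjusted p from 0.0739 to 0.173). Idh2, the NADP-linked isocitrate dehydrogenase, had one of 0.41 (edgeR adjusted p = 0.18). Mrps36, at 0.11, and Ogdhl, a relative of Ogdh at 0.959 CPM in WT, at -0.03, overlapped between the groups.

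Lysine and tryptophan breakdown, which leads to the substrate of Dhtkd1, had 3 of 10 tested genes called higher and none lower. Of all tested genes 2.52% were called higher and 2.46% lower. The median log2 fold change of the 10 was 0.76 (0.41 with library totals alone). Tdo2, which opens the tryptophan ring, rose 2.33-fold, from 663, 715 and 1030 CPM in WT to 1727, 1739 and 2153 CPM in Cys52Ser (adjusted p = 0.0302, edgeR). Aass, the entry enzyme of lysine breakdown, rose 2.20-fold from 120, 159 and 200 CPM to 342, 302 and 409 CPM (edgeR adjusted p = 0.0353). Kmo, kynurenine monooxygenase, rose 1.80-fold (edgeR adjusted p = 0.0465). All 3 calls also held with library totals alone, where 1.57% of tested genes were called higher. The Kmo gene is the one that lies across from Fh1.

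At the pyruvate entry, 2 of 11 genes of pyruvate dehydrogenase and its regulators rose and none fell. Here and in the lists that follow, the shares of all tested genes were 2.52% higher and 2.46% lower. Pdk1, a kinase that inhibits the complex, rose 2.18-fold, with 31.1 ± 7.42 CPM in WT and 67.7 ± 11.5 CPM in Cys52Ser (each SD, n = 3; adjusted p = 0.034, edgeR), and Dlat, its acetyl-transferring component, 1.44-fold (edgeR adjusted p = 0.0487). The Dlat call was lost in all 6 fits that left out a mouse (edgeR adjusted p from 0.0739 to 0.155). Among 12 enzymes that feed or drain the cycle, Mmut, methylmalonyl-CoA mutase, rose 1.64-fold (edgeR adjusted p = 0.0389). Pcx, pyruvate carboxylase, had a log2 fold change of 0.75 and did not pass (edgeR adjusted p = 0.061). Of 11 carriers, Slc25a13, the aspartate-glutamate carrier citrin, rose 2.05-fold (edgeR adjusted p = 0.0267).

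None of 6 cytosolic counterparts passed, with Aco1 nearest at a log2 fold change of 0.68 (edgeR adjusted p = 0.0511). None of 8 thiamine and lipoate genes passed, with a median of 0.09, and none of 15 genes of mitochondrial membrane and import, with a median of 0.30. Of 14 regulators of mitochondrial genes, Ppara, the receptor that drives fatty acid oxidation, rose 2.78-fold (edgeR adjusted p = 0.0208) and Esrra, a receptor that binds promoters of cycle genes, rose 1.51-fold (edgeR adjusted p = 0.0389). The Esrra call was lost with library totals alone (edgeR adjusted p = 0.155). Over these 9 lists together, 9 of 98 tested genes were called higher and none lower, against 2.52% and 2.46% of all tested genes. With a mouse left out that number was 0 in each of the fits that dropped replicate 2 of WT or replicates 1 or 3 of Cys52Ser, 1 without WT replicate 1, 5 without Cys52Ser replicate 2 and 12 without WT replicate 3. Each of the 9 calls was therefore lost in at least those 3 fits, where few of all tested genes were called higher. Higher calls numbered 43 of 19349 genes without WT replicate 2, and 22 of 19278 and 21 of 19267 without Cys52Ser replicates 1 and 3. Without WT replicate 1, Cys52Ser replicate 2 and WT replicate 3, they numbered 210 of 19008, 287 of 19364 and 378 of 19452. DESeq2 called 42 of the 98 higher and none lower, against 8.03% and 6.8% of all tested genes. With library totals alone edgeR called 7 of the 98 higher and 2 lower, against 1.57% and 14.6%.

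**Figure D4:**
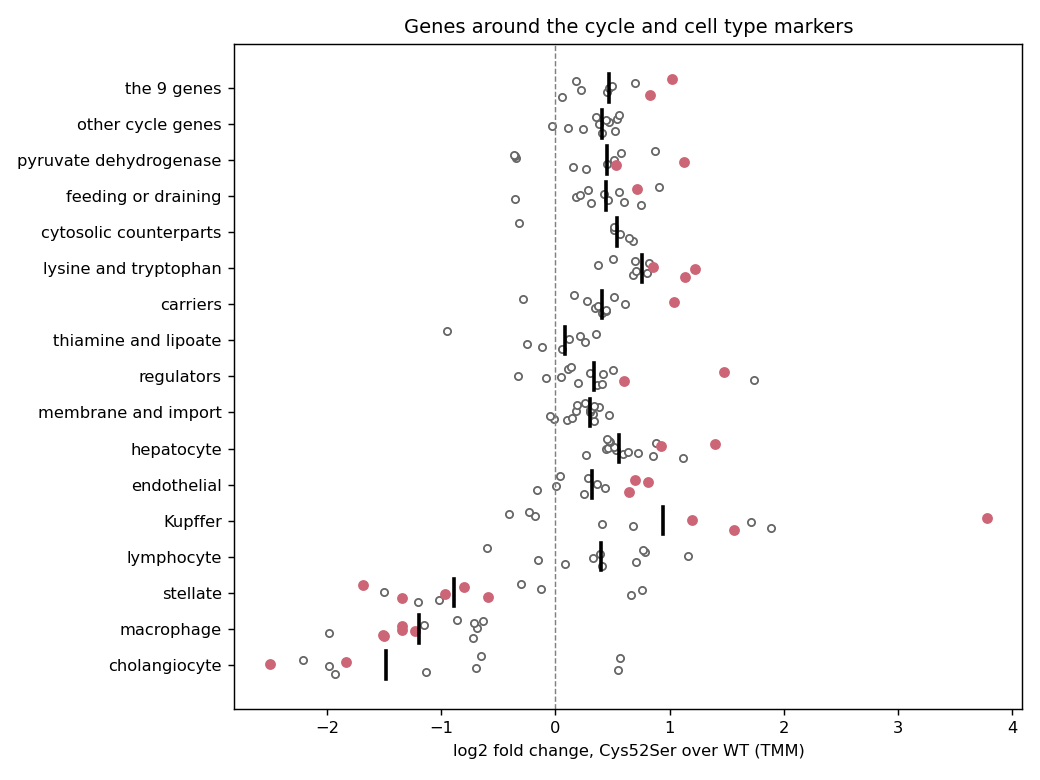
Log2 fold change, Cys52Ser over WT with TMM scaling, of each tested gene in 17 lists; filled points passed edgeR at an adjusted p under 0.05, black bars are list medians and the dashed line the median of all tested genes. The median of the 9 genes (0.47) lies between those of lymphocyte (0.40) and hepatocyte markers (0.56). Endothelial markers lie at 0.32 and Kupffer cell markers at 0.94, while macrophage (-1.19), stellate cell (-0.88) and cholangiocyte (-1.49) markers lie lower.

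Markers of cell types moved in the same comparison. In it edgeR called 2.52% of all tested genes higher and 2.46% lower (1.57% and 14.6% with library totals alone). All 16 hepatocyte markers had positive log2 fold changes with a median of 0.56, and 2 rose, Cps1 by 1.40 and Hnf4a by 0.92 on the log2 scale (edgeR adjusted p = 0.0302 and 0.0355). With library totals alone that median was 0.21. Of 12 macrophage markers 5 fell and none rose, with a summed level of 4967 to 7548 CPM in WT and 2518 to 3211 CPM in Cys52Ser. Of 12 stellate cell markers 5 fell and none rose (1594 to 2737 against 944 to 1236 CPM), and of 10 cholangiocyte markers 2 fell and none rose (642 to 1353 against 159 to 451 CPM). Spp1 stands in both the macrophage and the cholangiocyte list, so their summed levels share a gene. Of 10 Kupffer cell markers 3 rose and none fell (850 to 1291 against 1293 to 1661 CPM). With library totals alone edgeR called 3 of these higher and 3 lower, and C1qa, C1qb and C1qc lay lower in every Cys52Ser mouse also with TMM scaling (log2 fold changes of -0.17, -0.40 and -0.24), chosen for mention after their values were seen. Of 10 endothelial markers 3 rose and none fell (440 to 490.3 against 512 to 608 CPM), but none was called with library totals alone. None of 10 lymphocyte markers passed (17.1 to 19.2 against 19.2 to 33.6 CPM). In the fits that dropped replicate 2 of WT or replicates 1 or 3 of Cys52Ser, none of these 7 marker lists held a call in either direction. Over all tested genes these fits called 57 of 19349, 31 of 19278 and 28 of 19267 in either direction. In whole liver, more hepatocytes and more RNA of a gene per hepatocyte cannot be told apart, and the part of these cell types in the values of the 9 genes was not tested.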

How the data were processed

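Liver RNA of 6 mice was measured, 3 per genotype, with groups and replicate numbers from the titles. Per the labels' protocols, poly(A) RNA was made into dUTP-marked libraries with molecular identifiers. Tools in the submitters' processing notes, whose roles are not stated, are StringTie 1.3.4d, HISAT2 2.0.4, cutadapt 1.9, UMI-tools, edgeR and DESeq2, and the build given there is mm9. Positions in the table are not mm9: 90.0% of 28524 identifiers shared with GENCODE M21 had identical coordinates there, so they are given as GRCm38 (8 of the 9 genes were identical, all but Mdh2). Per the file headers, the authors deposited both FPKM and an estimated count for each gene. The sources used here do not say if counting used strand.

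Counts are whole numbers and were used as deposited in edgeR 4.0.16 (R 4.3.3; filterByExpr with a minimum count of 10, TMM, robust quasi-likelihood test, genotype only), adjusted by Benjamini-Hochberg over 18648 genes. Intervals use the fit's degrees of freedom. DESeq2 1.42.0, limma 3.58.1 on log2(FPKM + 0.5), other scalings and filters, a replicate block and each mouse left out were alternatives. The tests were tested on simulated data. The 9 genes and all lists were chosen with earlier results of these data known; the promoter motifs were chosen after the fold changes were seen. Named genes were the 9, the other cycle genes, per list the called genes with the 4 smallest p-values (the 2 smallest where fewer than 2 were called), the most alike genes, Alb and Prdx1. The 100-base stretches of the 9 genes' transcripts were searched in all other GENCODE transcripts: 8 genes shared 0, and Dhtkd1 shared 158 of 6326 (2.50%) with 18 genes. Protein sequences were not used here. An item of the gene lists is not reported here.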

Additional observations from a re-analysis of the deposited data

How the results depend on the processing

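Calls changed with scaling and tool. With library totals alone, 3017 genes changed (293 higher, 2724 lower), 1 of the 9 genes was called higher, their median was 0.11, Dhtkd1 had 0.66, and Cs, Idh3g and Mdh2 reversed to -0.29, -0.13 and -0.17. DESeq2 called 2766 genes (1498 higher, 1268 lower) and called 5 of the 9, adding Idh3b (0.46), Ogdh (0.48) and Suclg1 (0.50). Limma on log2(FPKM + 0.5), + 0.1 and + 1 called 3345, 3340 and 3327 genes (2974, 2978 and 2956 lower) and called 1 of the 9 each, with medians of 0.11, 0.12 and 0.11, Dhtkd1 at 0.63, 0.69 and 0.56, and reversed signs for Cs (-0.28, -0.29 and -0.27), Idh3g (-0.13 in each) and Mdh2 (-0.14 in each). Without its filter, limma called 174 genes higher and 1091 lower and 0 of the 9 (2 at an unadjusted p under 0.05), with Idh3a at 0.45, Dhtkd1 at 0.63, Cs -0.28, Idh3g -0.13, Mdh2 -0.14 and a median of 0.11. The cause of these differences was not tested. Leaving out each mouse gave 28 to 790 changed genes, 409, 57 and 790 without WT replicates 1, 2 and 3 and 31, 504 and 28 without Cys52Ser replicates 1, 2 and 3 (21 to 378 higher, 7 to 412 lower), 0 to 1 of the 9 called, and a median of 0.30 to 0.54. Log2 fold changes then ranged from 0.77 to 1.14 for Dhtkd1, 0.72 to 0.90 for Idh3a, -0.070 to 0.11 for Cs (negative without WT replicate 2) and -0.049 to 0.32 for Mdh2 (negative without WT replicate 1). The other 5 genes kept a positive sign in these fits. Same-numbered mice had deviations correlating at 0.02, 0.173 and 0.08, so the numbers were not taken as pairs; with a replicate block 729 genes changed (303 lower) and Idh3a and Dhtkd1 remained the 2 called.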
